A study of Mus musculus with 6 samples.

Results

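Early lymphoid genes were followed in 10 rows of a deposited table of 16440 genes: Dntt, Rag1, Rag2, Igll1, Vpreb1, Cd79a, Cd79b, Cd4, Il7r and Ebf1. The rows were found by gene name, and the genes were chosen by their measured values in the same comparison that is described here, with Igll1 and Vpreb1 picked as higher in leukemia and the others as lower. Their levels are therefore a description, with no test. The measured values departed from that grouping for 1 gene, Cd79a, whose libraries overlapped between the groups.

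The libraries were RNA-seq of total RNA from sorted cells of FVB N/J mice, 3 per group, which the design text calls biological replicates. Normal myeloid progenitors (MPs) were Lin-Sca-1-c-Kit+ cells of normal bone marrow (BM). The c-Kit+ APL progenitors were GFP-labeled acute promyelocytic leukemia cells from hMRP8-PML/RARα transgenic mice, in which a promoter active in myeloid cells drives the fusion gene, with GFP added by the MigR1 retrovirus. They had been expanded by transplantation into syngeneic mice, and neither group had been given a drug. Whether the APL libraries came from 1 leukemia or several was not stated, so the spread between them may be smaller than that between leukemias.

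B and T cells assemble their antigen receptor genes by V(D)J recombination. The recombinase Rag1/Rag2 cuts the DNA, repair enzymes join it, and terminal transferase (Dntt) adds bases at the joints. An early B cell first pairs its new heavy chain with a surrogate light chain made of Igll1 (λ5) and Vpreb1, and the Cd79a/Cd79b pair carries the signal of this pre-B receptor into the cell. Ebf1 is the transcription factor that opens the B cell program, Il7r is the α chain of the interleukin 7 receptor on early lymphoid cells, and Cd4 is the co-receptor of helper T cells. Low levels of some of these genes in uncommitted progenitors are known as lymphoid priming.

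Igll1 and Vpreb1 lie next to each other on the same strand of mouse chromosome 16, and Dntt lies on chromosome 19. The 250 bases before their start sites are shown because these genes differed most in opposite directions, Vpreb1 being the neighbor of Igll1. The sequences are RefSeq's for GRCm38.p6, written 5′ to 3′ on the gene's own strand. Capitals mark the motifs CCCNNGGG, the paired half-sites of EBF proteins, and CAGNTG, an E-box, found on either strand. No base was in both motifs in these windows.
Igll1, chr16:16863986-16864235, minus strand: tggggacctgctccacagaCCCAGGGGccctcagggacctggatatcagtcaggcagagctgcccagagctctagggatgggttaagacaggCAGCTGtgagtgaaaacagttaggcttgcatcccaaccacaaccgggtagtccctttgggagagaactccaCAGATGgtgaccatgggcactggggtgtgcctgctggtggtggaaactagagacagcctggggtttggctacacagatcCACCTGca
Vpreb1, chr16:16869256-16869505, minus strand: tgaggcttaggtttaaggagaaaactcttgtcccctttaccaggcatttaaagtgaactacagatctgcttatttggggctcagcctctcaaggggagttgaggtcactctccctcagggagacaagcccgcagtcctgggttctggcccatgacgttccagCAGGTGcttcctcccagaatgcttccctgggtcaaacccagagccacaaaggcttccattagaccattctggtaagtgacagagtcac
Dntt, chr19:41029025-41029274, plus strand: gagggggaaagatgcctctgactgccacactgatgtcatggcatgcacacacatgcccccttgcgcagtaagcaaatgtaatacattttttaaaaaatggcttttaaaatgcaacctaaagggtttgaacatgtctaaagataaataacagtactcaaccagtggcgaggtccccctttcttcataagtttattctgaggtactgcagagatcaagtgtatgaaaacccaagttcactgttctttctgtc

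Igll1 held 1 CCCNNGGG, beginning 231 bases before the start, and 3 CAGNTG, beginning 158, 87 and 8 bases before it. Vpreb1 held 1 CAGNTG at 88 bases, and Dntt held neither motif. CCCNNGGG was in 11.8% of all 32851 promoter windows of this length and CAGNTG in 44.8%. Of the 9 windows found, for 8 of the 10 genes, CCCNNGGG was in 1 and CAGNTG in 5. The PU.1 core GAGGAA, searched on both strands, was in 4 of the 9 and in 23.3% of all windows, and the Ikaros core TGGGAA in 2 of the 9 and in 21.6%. These are matches of letters in a window and not sites known to be bound.

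Values are given as scaled fragments, the authors' estimated fragments of a gene after scaling between libraries, and as FPKM, which also divides by transcript length. Total fragments before scaling were 22976905 to 26932327 in the MP libraries and 20608715 to 28382785 in the APL libraries. MP library 3 stood farthest from its group, with a variance of 13.7 and 13.8 times counting noise against libraries 1 and 2, which differed by 3.06 times. Leaving it out moved the log2 difference of Igll1 from 8.13 to 7.80. Then 9 of the 10 members had groups apart, which fewer libraries make easier for any gene. The share over all genes was not computed without this library. As a check of the sort, the stem and progenitor receptor gene Kit was present in all libraries, at 10668 ± 272 scaled fragments in normal MPs and 5929 ± 132 in APL (SD, n = 3 each). Ly6a (Sca-1), the marker that normal MPs were sorted to lack, was at 27.2 ± 7.09 and 43.4 ± 4.99. Cd34 was at 6684 ± 1096 and 82.6 ± 8.40, and Fcgr3 at 779.6 ± 122 and 2873 ± 209. Neither of these is named in the sorts. Summed over the 4 granulocyte progenitor markers Elane, Mpo, Prtn3 and Ctsg, FPKM was 8378 to 9460 in normal MPs and 22920 to 27380 in APL. In bulk RNA, fewer cells of a type and less RNA per cell cannot be told apart.

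Of the 10 genes, 2 (Igll1 and Vpreb1) were higher in every APL library than in every MP library, 7 were lower in every APL library, and 1 overlapped. Over the 14595 genes tested, 31.1% were higher and 39.8% lower without overlap. With limma, at a Benjamini-Hochberg adjusted p under 0.05 and a fold change over 1.5, 21.7% of all genes were called higher and 24.4% lower. These background shares are for reference only, since the members were chosen on this contrast. All 10 passed the filter on low values, but Rag1 and Ebf1 had no APL library at 1 scaled fragment or above, Rag2 had 1 and Cd4 had 2. The plot of the members by library shows the same split.

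**Figure D1:**
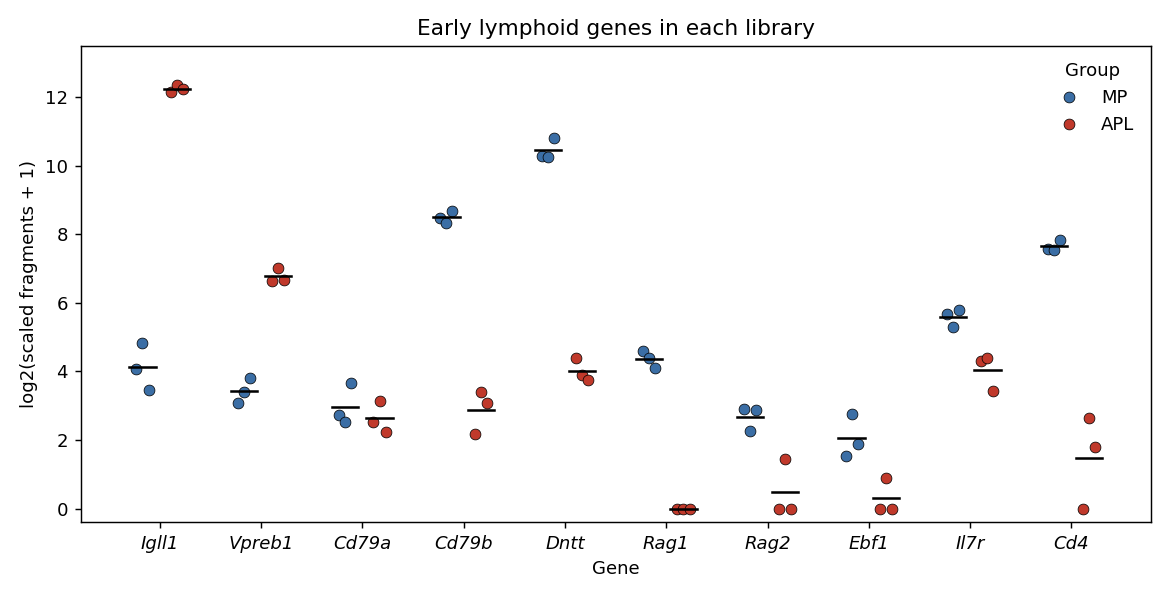
Each point is 1 library, as log2(scaled fragments + 1), for the 10 genes on the horizontal axis, with normal MPs in blue and APL in red, and the bar is the mean of 3 libraries. The APL points lie above all MP points for Igll1 and Vpreb1, overlap them for Cd79a, where 1 APL point lies among the MP points, and lie below them for the other 7 genes.

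Igll1 encodes the constant part of the surrogate light chain and is textbook pre-B cell equipment. It had 15.9, 27.6 and 9.92 scaled fragments in the 3 normal MP libraries and 4567, 5264 and 4873 in the 3 APL libraries. Every APL value was far above every MP value, and the spread was small within both groups next to that gap. The means were 17.8 ± 8.996 and 4901 ± 349 (SD, n = 3), a 275-fold ratio. On log2(scaled fragments + 1) the difference was 8.13. In FPKM the level went from 0.969 ± 0.521 to 264 ± 21.1, that is from the mean percentile 34.5 of all genes in normal MPs to 98.3 in APL. Fragments before scaling were also summed per group, and their ratio was adjusted for the scaling of the libraries. This ratio was 280, with a 95% exact interval of 216 to 370. Ratios of fragments given below were adjusted in the same way, and such intervals cover counting error only.

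Vpreb1, the variable-like part of the surrogate light chain, was also higher in APL, but far less so. It had 7.49, 9.47 and 12.9 scaled fragments in normal MPs and 98.9, 128 and 101 in APL. The groups did not overlap, with means of 9.96 ± 2.75 and 109 ± 16.2, an 11.0-fold ratio and a log2 difference of 3.35. Its FPKM was 0.661 ± 0.158 and 7.48 ± 1.21. Vpreb1 has a near-identical copy, Vpreb2, and its fragment estimates were not whole in 4 of the 6 libraries (tolerance 0.02), so the division of fragments between the copies is uncertain. Vpreb2 itself was at 2.86 ± 0.0470 scaled fragments in normal MPs and 2.21 ± 1.68 in APL and was not called (limma, Benjamini-Hochberg adjusted p = 0.447).

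The 2 surrogate light chain genes were at like FPKM in normal MPs, with Igll1 over Vpreb1 at 1.70, 2.35 and 0.619. In APL the same ratio was 36.4, 32.5 and 37.8. The mean ratios were 1.56 ± 0.875 and 35.6 ± 2.74 (SD, n = 3), and both genes were used to choose the group, so this too is a description.

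Cd79a and Cd79b encode the signalling pair of the pre-B and B cell receptors. Neither was higher in APL without overlap. Cd79b had 354, 323 and 413 scaled fragments in normal MPs and 3.53, 9.54 and 7.41 in APL. All 3 APL values were far below the MP values, with means of 363 ± 45.8 and 6.83 ± 3.04, a ratio of 53.2 for MP over APL and a log2 difference of -5.62. Cd79a had 5.62, 4.76 and 11.7 in normal MPs and 4.71, 7.80 and 3.70 in APL. These overlapped, and the log2 difference of -0.35 lay within the spread of the libraries. It turned to 0.38 with quantile normalization, and without APL library 2 it was -0.60 and the groups no longer overlapped. Its ratio of fragments, MP over APL, was 1.31 with a 95% exact interval of 0.666 to 2.63.

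In FPKM, Cd79b over Cd79a was 68.5, 73.9 and 38.3 in normal MPs and 0.824, 1.35 and 2.18 in APL. So the partner genes of the signalling pair were at very unequal levels in normal MPs, and both were low in APL, at 0.248 ± 0.111 for Cd79b and a mean of 0.179 for Cd79a. The plot of FPKM for the pre-B receptor genes shows Igll1 alone at a high level in APL, with its partners lower.

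**Figure D2:**
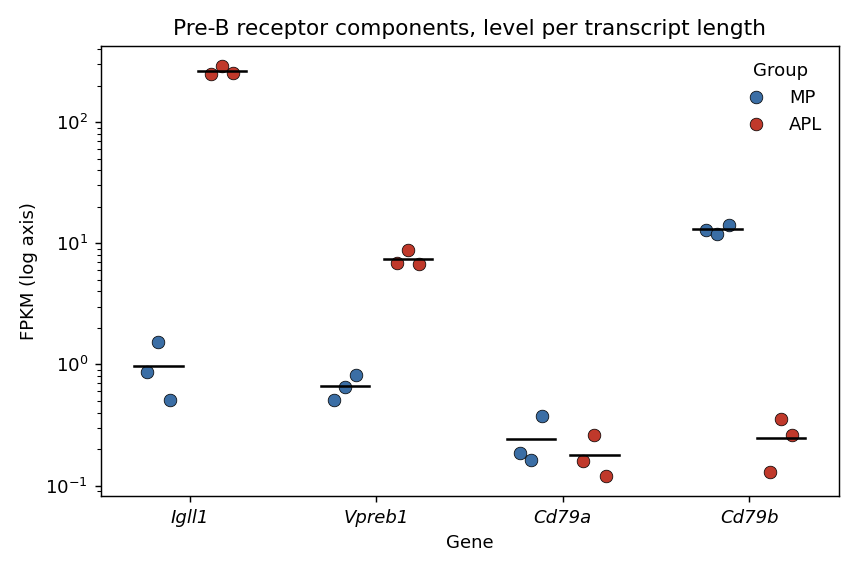
Each point is the FPKM of 1 library on a log axis for the 4 pre-B receptor genes, normal MPs in blue and APL in red, and the bar is the mean of 3 libraries. Igll1 is at 250 to 288 FPKM in APL, Vpreb1 at a mean of 7.48, and Cd79a and Cd79b at means of 0.179 and 0.248 in APL.

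Dntt, terminal transferase, was the most abundant member in normal MPs. It had 1254, 1223 and 1787 scaled fragments there and 20.03, 13.9 and 12.3 in APL. The groups were far apart, with means of 1421 ± 317 and 15.4 ± 4.07, a ratio of 92.2 for MP over APL and a log2 difference of -6.44. Its FPKM was 22.5 ± 4.65 and 0.248 ± 0.0693, the mean percentile 78.3 and then 29.2 of all genes.

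Rag1 and Rag2, the subunits of the recombinase, were low in normal MPs already. Rag1 had 23.4, 19.99 and 16.2 scaled fragments in normal MPs and 0 in all 3 APL libraries. Its normal MP mean before scaling was 7.11 times a floor of 3 fragments per library. Rag2 had 6.56, 3.81 and 6.31 in normal MPs and 0, 1.73 and 0 in APL, and its ratio of fragments was 7.84 (95% exact interval 1.88 to 69.7). Both were below all MP libraries in APL, but the Rag2 values rest on few fragments, and the table gives Rag2 the locus of an overlapping gene, B230118H07Rik, although its fragment estimates were whole in all 6 libraries.

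Ebf1 was near the limit of detection in both groups. It had 1.87, 5.71 and 2.71 scaled fragments in normal MPs and 0, 0.867 and 0 in APL, a ratio of fragments of 9.59 with a 95% exact interval of 1.39 to 413. At this depth its level in APL was not distinguishable from 0. The high Igll1 and Vpreb1 of APL stood beside an Ebf1 at no more than 1 fragment in any APL library.

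Il7r had 50.6, 38.1 and 54.1 scaled fragments in normal MPs and 18.9, 19.9 and 9.87 in APL. The groups did not overlap, and the ratio of means was 2.93, the smallest of the 7 lower genes. Il7r lies on chromosome 15, where the median log2 difference of the 563 genes tested was 0.46 against -0.12 for genes elsewhere. The Il7r difference of -1.54 thus ran against its chromosome.

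Cd4 had 190, 185 and 229 scaled fragments in normal MPs and 0, 5.20 and 2.47 in APL. Every APL library was far below the MP libraries, with a ratio of 78.7 for MP over APL, and the ratio of fragments was 70.9 (95% exact interval 35.8 to 165). The 5 T cell markers of 7 that were measured summed to 1.84 to 3.53 FPKM in normal MPs and 2.41 to 3.24 in APL, so this sum overlapped between the groups. Most of it was Lck and Cd3d, neither of which was called, while Cd3e was at 0 in all 3 MP libraries and Cd247 was called lower. Their part in the Cd4 values was not tested.

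By FPKM, the order in normal MPs was Dntt, Cd79b, Cd4, then Igll1, Vpreb1 and Il7r, then Cd79a, then Rag1, Ebf1 and Rag2. The ranges of Igll1, Vpreb1 and Il7r overlapped in turn, as did those of Rag1, Ebf1 and Rag2. In APL, Igll1 and Vpreb1 led, each above the next without overlap. Dntt, Cd79b, Cd79a and Il7r followed and could not be put in order, and Cd4, Rag2, Ebf1 and Rag1 came last with overlapping ranges. The gene at the head in normal MPs, Dntt, thus had about the FPKM of Cd79b in APL.

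Markers of other cells moved with these genes in part. The 6 measured mature B cell markers of 8 summed to 7.82 to 14.0 FPKM in normal MPs and 1.26 to 1.89 in APL, most of it Cd74. Ms4a1 and Cr2 were at or under 3 fragments in every library of both groups. Of 8 plasmacytoid dendritic cell markers, a cell type that can express Dntt, Rag1 and Cd4, 7 were measured. Their sum was 50.8 to 64.2 in normal MPs and 85.8 to 108 in APL, nearly all of it Bst2, which many cell types express. With limma, Bst2 rose, Siglech, Pacsin1 and Ccr9 fell, Tcf4 and Cox6a2 were not called, and Ly6d was not tested. Siglech, Pacsin1 and Ccr9 had 10.2 ± 5.87, 9.28 ± 0.679 and 17.6 ± 5.55 scaled fragments in normal MPs. They had at most 3 fragments in any APL library. Cox6a2 was at 13.9 ± 2.05 in normal MPs and 9.78 ± 1.35 in APL (limma, adjusted p = 0.161). Ccr9 is also on the list of lymphoid-primed progenitor genes used below. The 8 macrophage and dendritic cell markers summed to 35.0 to 47.5 and 42.0 to 45.1, a sum in which 3 genes fell, Flt3 and Csf1r among them, and 2 rose, Cd68 and Emr1. The 4 erythroid markers summed to 215 to 264 and 10.1 to 11.4, and all 4 fell. The part of such cells in the values above was not tested.

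Igll1 (chr16:16860671-16863985) and Vpreb1 (chr16:16868401-16869255) are 4415 bases apart, so their neighbors show whether the whole stretch was higher. Of the 4 genes tested within 100 kb, 1 was called higher and 3 were not called. Top3b, a topoisomerase gene, rose by 0.89 on the log2 scale (SE 0.07, limma, Benjamini-Hochberg adjusted p = 3.3e-06). The differences of the others were 0.45 for Ppm1f, -0.02 for Spag6 and -1.06 for Rpl31-ps12 (SE 0.89), which shares the Spag6 locus. With quantile normalization Spag6 was at 0.66 and was called higher, and Rpl31-ps12 was called lower with the library number as a block (limma, adjusted p = 0.038) and without APL library 3 (log2 difference -2.10, adjusted p = 0.025). Chromosome 16 as a whole had a median of -0.15 over 454 genes. The plot of the stretch sets Igll1 and Vpreb1 above all these neighbors.

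**Figure D3:**
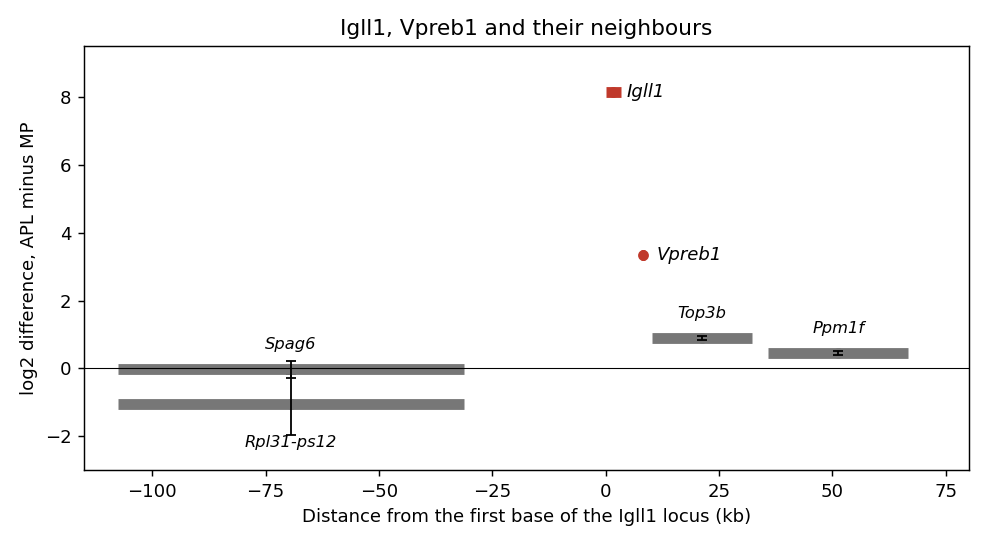
Horizontal bars mark the genes by distance from the first base of the Igll1 locus in kb, and their height is the log2 difference, APL minus MP, with the standard error for the 4 neighbors (gray). Igll1 is at 8.13 and Vpreb1 at 3.35, and the neighbors lie between -1.06 and 0.89.

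Rag1 and Rag2 are neighbors on chromosome 2, 5723 bases apart as the table's loci run. None of the 3 other genes tested within 100 kb was called by limma. Their log2 differences were -0.31 for B230118H07Rik, -0.16 for Traf6, a signalling adaptor, and -0.64 for Prr5l.

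The genes that work with the members were taken from 6 lists of 91 genes, of which 88 were in the table and 79 were tested. The lists were chosen with earlier results of these data known, so their shares are a description. With limma, 35 of the 79 fell (44.3%), 20 rose (25.3%) and 24 were not called, with a median log2 difference of -0.39. Over all genes tested, 24.4% fell and 21.7% rose, with a median of -0.10, so the share that rose was near that of all genes. The plot of the lists shows genes on both sides of 0 in each.

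**Figure D4:**
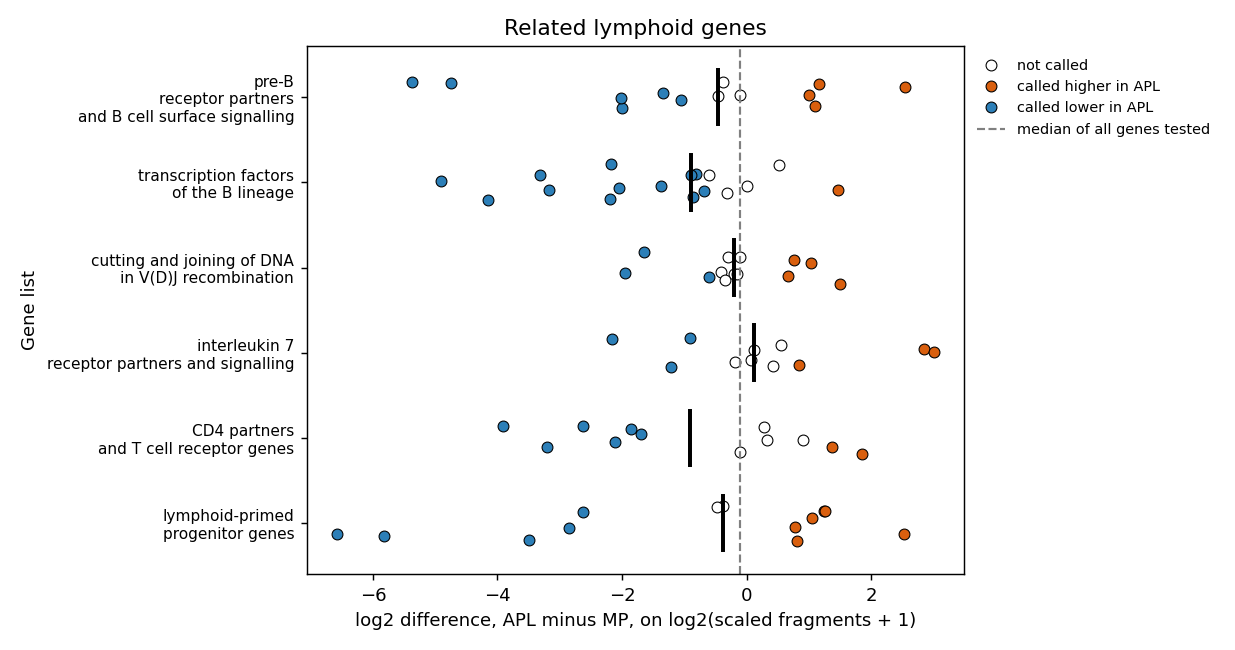
Each point is 1 gene of the list on the vertical axis, placed by its log2 difference, APL minus MP, on log2(scaled fragments + 1). Blue points were called lower, orange points higher and white points neither, the black bar is the list's median and the dashed line is the median of all genes tested, -0.10.

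Of 13 tested partners of the pre-B receptor and B cell surface genes, 6 fell (46.2%, against 24.4% of all genes), 4 rose (30.8%, against 21.7%) and 3 were not called, with a median of -0.46. Blnk, the adaptor that links the receptor to its kinases, went from 41.9 ± 13.1 scaled fragments to 0 in all APL libraries (limma, adjusted p = 1.5e-06). Its normal MP mean before scaling was 15.1 times a floor of 3 fragments per library. The surface inhibitor Cd72 fell from 130 ± 29.6 to 4.72 ± 3.75 (log2 difference -4.74, SE 0.49, limma, adjusted p = 3.3e-05).

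Vpreb3, which associates with newly made immunoglobulin chains, rose. It had 0.937, 0.952 and 4.51 scaled fragments in normal MPs and 16.5, 13.9 and 14.8 in APL, a log2 difference of 2.54 (SE 0.45, limma, adjusted p = 0.00093). Its APL values were low beside those of Vpreb1. Lyn, a kinase of both B and myeloid cells, rose by 1.16 on the log2 scale (limma, adjusted p = 1.2e-06).

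Of 17 tested B lineage transcription factors, 12 fell (70.6%, against 24.4% of all genes), 1 rose (5.88%, against 21.7%) and 4 were not called, with a median of -0.89. The list includes Irf8, Mef2c and Ikzf1, which the study itself names as repressed in this comparison and which all fell here. These shares are therefore a description. Irf8 fell from 2966 ± 398 to 97.7 ± 14.7 scaled fragments (log2 difference -4.91, SE 0.14, limma, adjusted p = 1.8e-08). Pou2f2 (Oct-2) fell from 191 ± 19.3 to 10.1 ± 3.58 (limma, adjusted p = 1.3e-06). Tcf3, whose product E2A binds E-boxes, fell from 5128 ± 654 to 1968 ± 249 and so stayed abundant (log2 difference -1.38, SE 0.12, limma, adjusted p = 8.3e-06). The gene that rose was Sfpi1 (PU.1), a factor of myeloid and B cells, from 2280 ± 358 to 6294 ± 683 (limma, adjusted p = 8.7e-06). Pax5 was not analysed here.

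Genes that cut and join DNA in V(D)J recombination also serve general DNA repair. Of 13 tested, 3 fell (23.1%), 4 rose (30.8%) and 6 were not called, with a median of -0.20, the share that fell being near the 24.4% of all genes. Polm, a polymerase related to Dntt, fell from 228 ± 8.22 to 58.8 ± 12.2 scaled fragments (log2 difference -1.95, SE 0.18, limma, adjusted p = 1.4e-05). Xrcc5 (Ku80) fell from 1259 ± 159 to 398 ± 13.1 (limma, adjusted p = 1.3e-06). The partners of the ligation step both rose, Lig4 from 170 ± 16.7 to 482 ± 23.8 (limma, adjusted p = 5.0e-06) and Xrcc4 from 260 ± 3.80 to 533 ± 14.1 (limma, adjusted p = 1.1e-05). Lig4 lies on chromosome 8, where the median log2 difference was 0.48.

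Of 11 tested genes of interleukin 7 receptor signalling, 3 fell and 3 rose (27.3% each) and 5 were not called, with a median of 0.12. Both shares were near those of all genes, 24.4% and 21.7%. The 3 that rose were Cish, from 138 ± 33.3 to 1098 ± 129.8 scaled fragments (limma, adjusted p = 1.1e-06), Socs1, from 20.7 ± 4.81 to 154 ± 21.5 (limma, adjusted p = 5.5e-06), and Il2rg. Cish and Socs1 are inhibitors that cytokine signals induce, and Il2rg is the chain that Il7r pairs with. Il2rg rose from 806 ± 134 to 1436 ± 46.1 (limma, adjusted p = 0.00017), the opposite direction to Il7r. Bcl2, a survival gene, fell by 2.16 on the log2 scale (limma, adjusted p = 1.4e-07) and Stat5a by 1.22 (limma, adjusted p = 7.1e-06).

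Of 12 tested T cell genes, 6 fell (50%, against 24.4% of all genes), 2 rose (16.7%, against 21.7%) and 4 were not called. The median was -0.90, or -0.51 with the gene at 0 in 1 group set against the floor of 3 fragments. Gata3 fell from 20.5 ± 14.5 to 0.289 ± 0.5005 scaled fragments (limma, adjusted p = 0.00017) and the surface gene Thy1 from 17.0 ± 0.937 to 1.197 ± 1.18 (limma, adjusted p = 0.00026). The co-stimulatory receptor Cd28 rose from 15.8 ± 3.75 to 59.2 ± 10.7 (limma, adjusted p = 0.00027). Cd5 rose from 6.26 ± 3.12 to 16.6 ± 3.12 (limma, adjusted p = 0.015), a call lost without APL library 2 (adjusted p = 0.053).

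Of 13 tested lymphoid-primed progenitor genes, 5 fell (38.5%, against 24.4% of all genes), 6 rose (46.2%, against 21.7%) and 2 were not called, with a median of -0.38. Cd27 fell from 990 ± 211 to 9.22 ± 0.858 scaled fragments (log2 difference -6.58, SE 0.19, limma, adjusted p = 2.3e-08). Flt3, the receptor that marks these progenitors, fell from 1894 ± 482 to 31.9 ± 3.43 (log2 difference -5.83, SE 0.18, limma, adjusted p = 2.8e-08). Ets1 rose from 934 ± 237 to 5293 ± 132 (limma, adjusted p = 9.0e-07) and Id2, an inhibitor of E proteins, from 251 ± 74.9 to 580 ± 20.5 (limma, adjusted p = 0.00068).

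The genes with the profile nearest to a member over the 6 libraries were found by Euclidean distance of centered log2(scaled fragments + 1). For Igll1 they were Prps1l1 (distance 0.32), Tmem108 (0.37) and Dmrtc2 (0.47). Prps1l1 had 13.1, 19.0 and 8.12 scaled fragments in normal MPs and 3580, 3453 and 3487 in APL, so like Igll1 it was near absence in the one group and abundant in the other. For Vpreb1 they were Adora2b (0.28), Klra2 (0.30) and Nrbp2 (0.31), and for Dntt Sdsl (0.26), Slc25a23 (0.41) and Mboat2 (0.45). None of the 9 was on the 6 lists.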

How the data were processed

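RNA-seq values were taken from 1 table with 3 MP and 3 APL libraries. The authors deposited FPKM values, normalized to transcript length and mapped fragments, and fragment values, a signal of estimated fragments scaled between libraries. The submitters' processing notes name CASAVA 1.8, TopHat2 2.0.6 and mm10, while the methods of the study describe mapping to mm9 by STAR and counting by HTSeq-count, with DESeq2 for testing. The tool that made the table is not given in the sources used here. Its loci follow GRCm38 with starts counted from 0, and are printed counted from 1. The authors' count scale was sought by dividing by the value of 1 fragment (0.867 to 1.23). This gave whole numbers for 85.2% to 87.9% of values (tolerance 0.02), so no count test was run.

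Genes with at least 1 scaled fragment in at least 3 of 6 libraries were tested with limma 3.58.1 (lmFit, eBayes with a trend) in R 4.3.3 on log2(scaled fragments + 1), which understates changes of low genes. All adjusted p-values are Benjamini-Hochberg over 14595 genes. The script was tested on simulated data. Exact intervals used scipy 1.17.1, and plots matplotlib 3.10.9 in Python 3.11.15.

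Genes named were the members, the 2 largest called decreases and increases of each list, Vpreb2, Vpreb3, Tcf3, Il2rg, Xrcc4 and Lig4 whatever their values, genes within 100 kb of Igll1, Vpreb1, Rag1 and Rag2, and the 3 nearest profiles of Igll1, Vpreb1 and Dntt. Markers were handled as lists, and Mef2c and Ikzf1 are named because the study names them. Another gene that this rule names is not reported here. The members and lists were chosen with earlier results of these data known. Alternatives varied the pseudocount, filter, unit, scaling, thresholds, replicate block and left-out library. Pax5, Cd8a and Cd2 of the lists, and Ighm, Trac and Klk1 of the markers, were not analysed here.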

Additional observations from a re-analysis of the deposited data

How the results depend on the processing

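Under the other settings, 130 of 144 differences of the members moved by less than 1 SD between replicates and 14 by more. Those under another filter on scaled fragments or the replicate block could not move. Neither alters the log2 difference of a gene, so they are no check of it. The 14 came with another pseudocount, quantile normalization or FPKM. Quantile normalization moved Rag1, Vpreb1, Cd79a and Il7r, with Il7r going from -1.54 to -0.97. FPKM moved Dntt and Cd4, with Cd4 going from -6.18 to -4.12. With a pseudocount of 5 the log2 differences of Rag1, Rag2 and Ebf1 were -2.31, -0.92 and -0.65. The sign changed in 2 values, both of Cd79a, with 0.38 under quantile normalization and a range of -0.60 to 0.00207 with a library left out. Without APL library 2, the Cd79a groups no longer overlapped, so 10 members had groups apart. The number was 8 with quantile normalization, 7 with a minimum of 10 scaled fragments and 6 with FPKM. The filters of these last settings, on 10 scaled fragments and on FPKM, left low members out. With a library left out, groups are apart more easily for any gene. The share of all genes with groups apart was not computed for these settings, so the counts are a description. Related genes called lower were 26 to 40 and higher 15 to 22, the 15 with a fold change over 2. Over the whole table, genes called lower were 2427 to 4376 and higher 2171 to 3567 under these settings. The 40 and the 4376 both came with each library scaled to the same total. Cd22 (limma, adjusted p = 0.0455) lost its call in most refits, and Cd247 lost it under quantile normalization and without APL library 2. Scaling each library to the same total moved the median of all genes from -0.10 to -0.23.

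The numbers 1 to 3 are shared by the groups. Deviations of same-numbered libraries correlated at 0.125, 0.00184 and 0.109 over 12081 genes, and MP 2 correlated better with APL 1 (0.147) than with its own number. With 3 libraries per group, these correlations cannot decide whether same-numbered libraries were prepared together. With the replicate block, 3589 genes were called lower and 3164 higher over the whole table, against 3558 and 3167 without it, and 34 and 20 related genes. Genes near the members called were 19 with the block and 18 without it. The 9 members with groups apart were counted on library values that the block does not alter, so that number could not change. The depth limits Rag1, Rag2 and Ebf1 most, with at most 2 fragments in any APL library.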

Other observations

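Of 37 genes tested by limma within 100 kb of a member, 9 were called lower, 9 higher and 19 were not called, with a median of -0.16. These counts are near the shares over all genes, 24.4% lower and 21.7% higher. The genes named here were chosen after their values were seen. Blnk, described above with the pre-B receptor partners, lies 34739 bases from Dntt on chromosome 19. Lag3, a Cd4-related inhibitory receptor of lymphocytes 16149 bases from Cd4 on chromosome 6, had 64.6, 79.4 and 111 scaled fragments in the normal MP libraries and 1.19, 5.21 and 6.23 in APL (limma, adjusted p = 4.8e-05). Capsl, 40123 bases from Il7r on chromosome 15, had 16.9, 17.1 and 32.5 in normal MPs and 0 in all 3 APL libraries (limma, adjusted p = 7.5e-06).

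Dmrtc2, 19859 bases from Cd79a on chromosome 7, had 0, 0.952 and 0 scaled fragments in the normal MP libraries and 333, 351 and 358 in the APL libraries (limma, adjusted p = 8.2e-08). Lypd4, beside it, was at 0 in all 3 MP libraries and at 29.5, 32.9 and 39.5 in APL. Cd79a itself overlapped between the groups.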
